A study of Mus musculus with 116 samples.

Results

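The comparison described here set late 2-cell mouse embryos of the control group against zygotes at PN5, the last pronuclear stage before the first cleavage, gene by gene in total RNA. Of the 24028 gene symbols in the table that holds both libraries, 13022 had at least 1 FPKM (fragments per kilobase of transcript, scaled by the mapped fragments of the library) in at least 1 of these libraries, and these are the measured genes. The other 11006 lay below 1 FPKM in both. Both libraries came from the same deposited table, and each group held 1 library, so no value has a spread and no difference has a replicate check.

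The series examined RNA polymerase II and the start of transcription in mouse oocytes and early embryos, and 7 of its 116 samples are RNA libraries used here. Embryos came from C57BL/6N females, 8 weeks old and superovulated with PMSG and then hCG, crossed with PWK males. PN5 zygotes were collected 30 h after hCG. The late 2-cell control embryos were collected as zygotes 23 h after hCG, held for 14 h in KSOM culture medium with 0.1% DMSO, the solvent, released on entering the 2-cell stage and cultured for a further 12 h. The labels record neither this culture nor the vehicle for the zygotes, and the effects of stage, vehicle and culture cannot be told apart. A second late 2-cell group, labelled mTBE, went through the same steps with 60 uM DRB, an inhibitor of transcription elongation. MII oocytes (13 h after hCG), early 2-cell embryos (36 h) and the inner cell mass (ICM, 98 h, 2 replicates) come from tables that were normalized separately. They serve below as levels and, for early 2-cell embryos against MII, as a side comparison between such tables. The total RNA libraries each came from about 100 oocytes or embryos and were depleted of ribosomal RNA; the ICM libraries were made with Smart-seq2, which reads polyadenylated RNA.

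The mouse oocyte stops transcription when fully grown and runs its last meiotic divisions and the first cell cycle on stored mRNA and protein. Stored mRNA is destroyed in waves from meiotic maturation onwards. Transcription from the embryo's own genome starts weakly in the zygote and becomes strong in the late 2-cell embryo, when a set of 2-cell genes, the translation machinery and many housekeeping genes are transcribed. A comparison of PN5 with the late 2-cell embryo therefore spans both processes.

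Differences are given as late 2-cell control minus PN5 on the log2(FPKM + 1) scale, and a gene is called higher at 1 or more and lower at -1 or less, a rule of size (2-fold on this scale) and not a test. Where a pair of FPKM values is given for a gene, the first is PN5 and the second the late 2-cell control. Of the measured genes 3970 (30.5%) were higher, 2218 (17.0%) were lower and 6834 lay between. These percentages are the background for every count below. The median difference over all measured genes was 0.28, and it became 0.41 when the median log2 ratio of genes present in both libraries was set to 0. PN5 had 9997 symbols at 1 FPKM or more, and the late 2-cell library had 12472. Increases reached further than decreases: 671 genes had a difference of 3 or more and 97 had -3 or less, and 83 had 5 or more against 7 at -5 or less. The 3970 higher genes were mostly scarce in the zygote: 2493 of them (62.8%) had less than 1 FPKM in PN5 and 701 were listed at 0 there. A gene below 1 FPKM in PN5 was measured through its late 2-cell level alone and could not be called lower, so the counts of lists with many such genes lean to the higher side by construction. A value of 0 may also be a failed estimate: Gapdh, a glycolytic gene that every cell uses, was listed at 0 in both libraries, as were 47 of 5295 symbols at 10 FPKM or more in MII. Leaving out genes listed at 0 in 1 of the libraries left 3269 higher and 2120 lower. Among higher genes, 1586 reached 10 FPKM or more in the late 2-cell control, while 1639 stayed below 5 FPKM. The 2218 lower genes were mostly still present: 304 (13.7%) were under 1 FPKM in the late 2-cell control, 98 were listed at 0 there, and 1619 had 10 FPKM or more in PN5.

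**Figure D1:**
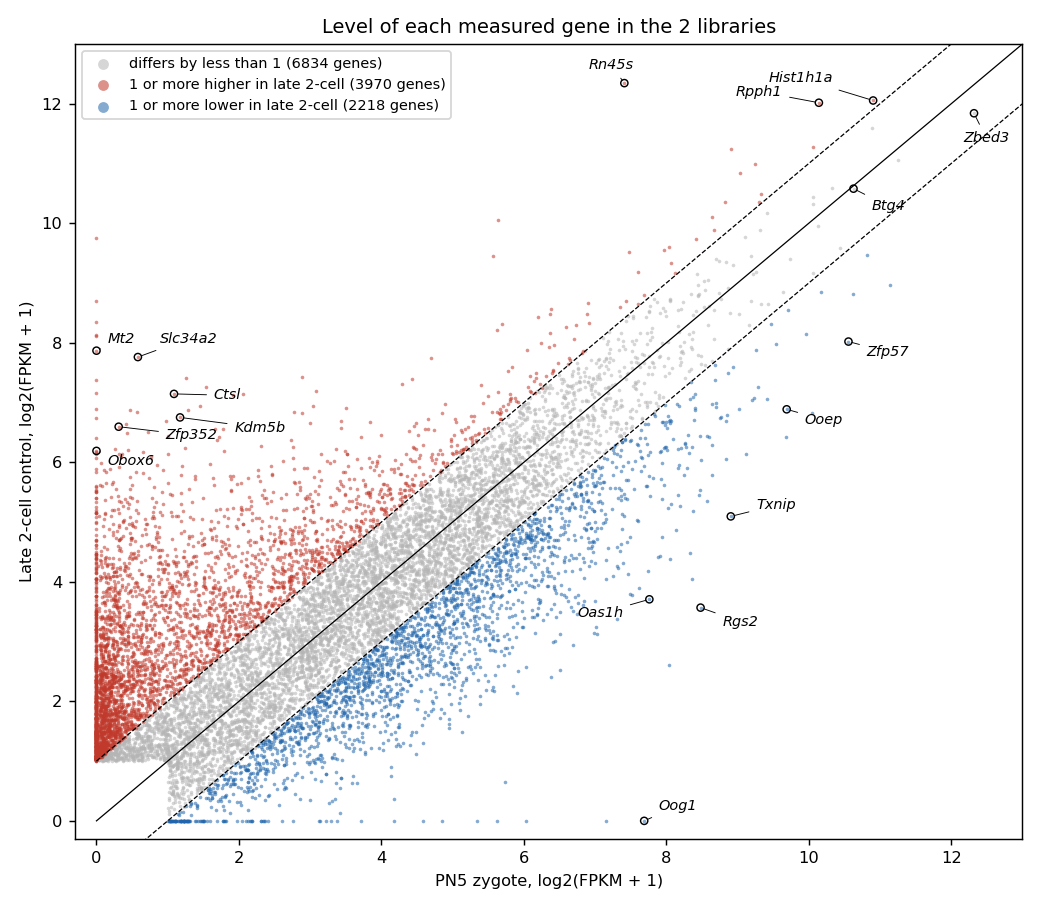
Level of the 13022 measured genes in the PN5 zygote (horizontal) and the late 2-cell control (vertical), both as log2(FPKM + 1), 1 point a gene, with the solid line at equal levels and dashed lines at a difference of 1. Red points (3970) crowd the left edge, where PN5 levels are near 0, and blue points (2218) lie along the right side, where PN5 levels are high.

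The summed FPKM were close, 354359 for the zygote library and 350614 for the late 2-cell one, and the 100 most abundant symbols other than small RNAs held 19.8% and 22.6% of them. Read depth is unknown, and the median log2 ratio of the 6112 genes at 5 FPKM or more in both libraries was -0.13. All 12 oocyte and early embryo markers reached 1 FPKM in both libraries, with a summed level of 5061 FPKM in PN5 and 2019 FPKM in the late 2-cell control. Of 20 cumulus and granulosa markers 2 reached 1 FPKM in PN5 and 7 did later, the sums being 138 and 80.3 FPKM; Serpine2 held most of both, with 124 and 49.5 FPKM. Without it the sums were 13.7 and 30.8 FPKM, and single markers went both ways. Cyp19a1, which held most of the PN5 sum left, had 12.2 and 2.85 FPKM. Amhr2 was listed at 0 and then at 16.7 FPKM, and Tnfaip6 at 0 and then at 5.60 FPKM. Fshr, Inhba and Ptx3 were listed at 0 in both libraries. Of 15 sperm markers 3 passed that level in each library, with sums of 76.4 and 92.4 FPKM, nearly all of it from Odf2 at 68.7 and 81.7 FPKM. Without Odf2 the sums were 7.65 and 10.7 FPKM, again with markers going both ways. Prm2, which held most of the PN5 sum left, had 5.28 and 0.487 FPKM. Ldhc was at 2.08 and 6.38 FPKM, Tnp1 was listed at 0 and then at 1.92 FPKM, and Prm1 and Akap4 were listed at 0 in both. The 9 blood markers in the table summed to 0.465 and 6.10 FPKM. Of 12 blastocyst markers 2 reached 1 FPKM in PN5 and 11 did later, with sums of 18.9 and 104 FPKM. Gata4 held 16.4 and 46.1 FPKM of these, though its mean in the ICM was only 1.55 FPKM. Without Gata4 the sums were 2.58 and 58.2 FPKM. The part of other cell types in the differences was not tested, and in whole embryos fewer cells of a type and less RNA per cell cannot be told apart.

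The direction of a gene's difference followed its level in the MII oocyte, a library that takes no part in the comparison. Among 3283 measured genes below 1 FPKM in MII, 74.0% were higher in the late 2-cell control and 2.10% were lower, with a median difference of 1.50. The shares moved together step by step: 30.1% higher and 10.3% lower at 1 to 5 FPKM in MII, then 13.8% and 21.1% at 5 to 20 FPKM, then 6.07% and 30.3% at 20 to 100 FPKM. Among 512 genes at 100 FPKM or more in MII only 4.69% were higher and 48.4% were lower, with a median of -0.94. Genes abundant in the oocyte were thus mostly within the limits or lower, and genes scarce in it were mostly higher, although many of the latter were below 1 FPKM in PN5 too and could not have been called lower. Binning by PN5 level, which is itself part of the difference, gave much the same picture, with 41.8% lower at 100 FPKM or more.

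**Figure D2:**
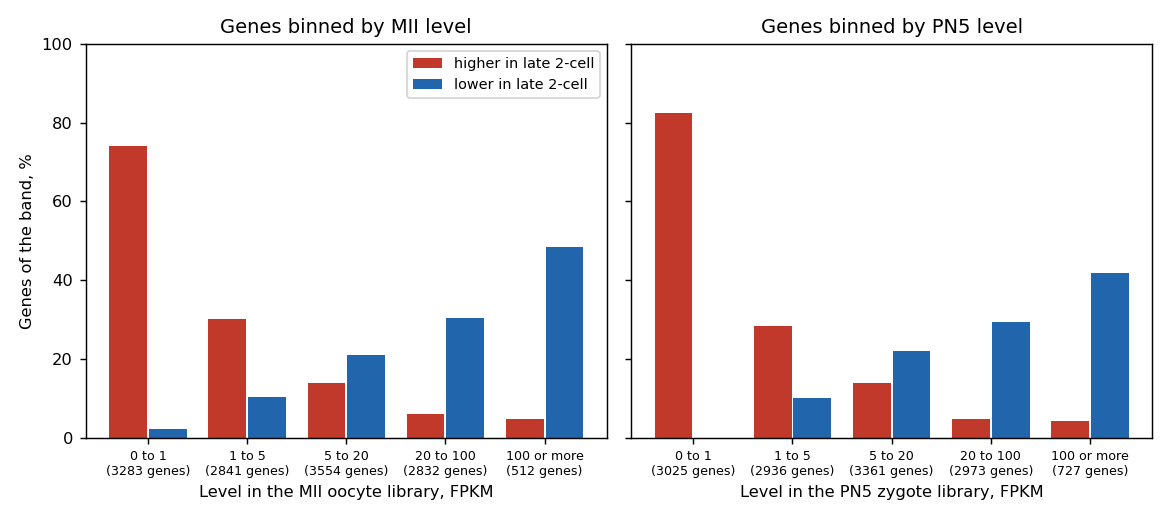
Share of measured genes that were higher (red) or lower (blue) in the late 2-cell control, in 5 bands of level in the MII oocyte (left) and in PN5 (right), in FPKM. The red bars fall from 74.0% to 4.69% and the blue bars climb from 2.10% to 48.4% from the lowest to the highest MII band.

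Genes known for transient expression at the 2-cell stage were among the most different in the table. Of 46 listed symbols present, 39 were measured, 36 of them higher and 1 lower, with a median difference of 4.23. Only 9 of the 46 were at 1 FPKM or more in PN5, against 39 in the late 2-cell control. Most of the measured members thus entered through their late 2-cell level alone and could not have been called lower. Summed over the 46 symbols the level was 133 FPKM in PN5 and 1381 FPKM in the late 2-cell control. Zfp352, a zinc finger gene used as a 2-cell marker, had 0.241 FPKM in PN5 and 95.7 FPKM in the late 2-cell control, a ratio of 397. It was listed at 0 in MII and in the ICM and had 4.82 FPKM in early 2-cell embryos, so its high levels were limited, among the libraries examined, to the late 2-cell pair. Trim43b, a tripartite motif gene, was listed at 0 in PN5 and had 106 FPKM. B020004J07Rik, also listed at 0 in PN5, reached 58.0 FPKM, and AF067063 had 1.90 and 152 FPKM. All 5 Zscan4 symbols in the table, telomere-linked 2-cell genes, were higher, none of them at 1 FPKM in PN5, and their median difference was 2.37. The 1 lower gene of the list was Zfp750, with 86.4 FPKM in PN5, 9.67 FPKM in the late 2-cell control and 60.1 FPKM already in MII. Dux, which encodes a homeodomain activator of 2-cell genes, was chosen here after its values were seen: it had 2.24 FPKM in PN5, 0.991 FPKM in the late 2-cell control and 25.4 FPKM in the early 2-cell library. Many of these genes lie in families of near-identical copies, and how reads shared between copies were counted is not given in the sources used here.

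The promoter of Zfp352 is shown because its sequence is a repeat array. The 250 bases upstream of its RefSeq start (GRCm38.p6, chr4:90218570-90218819, plus strand) held 9 copies of TAATCC, the reverse complement of GGATTA, the core that several homeodomain proteins bind; capitals mark the copies, which begin at positions from -227 to -61.

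Zfp352: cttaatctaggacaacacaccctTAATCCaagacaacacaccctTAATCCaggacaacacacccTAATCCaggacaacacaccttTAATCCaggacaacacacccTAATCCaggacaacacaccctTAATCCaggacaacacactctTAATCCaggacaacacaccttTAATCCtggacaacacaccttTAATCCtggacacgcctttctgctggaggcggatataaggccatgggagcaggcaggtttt

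GGATTA was searched on both strands of the same window of every gene with one. It occurred in 5.22% of 10051 measured protein-coding genes and in 6.38% of 27025 genes of the RefSeq table. No other measured gene had as many copies, the next highest count being 4. This motif and gene were chosen after the windows were seen. The shares among called genes were close to that of all measured genes: 5.65% of 2955 higher genes and 5.60% of 1731 lower genes with a window held it.

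The Obox family, oocyte and embryo homeobox genes, split by member. Obox6 was listed at 0 in PN5 and had 72.1 FPKM in the late 2-cell control, and Obox3 had 0.347 and 88.7 FPKM. Obox1 went the other way, with 381 FPKM in PN5 and 85.8 FPKM later, and Obox5, the most abundant, had 585 and 414 FPKM, a difference of -0.50. In a wider list of transcription factors linked to genome activation, 15 of 34 measured were higher and 6 lower (median 0.69). On the higher side, Zscan5b had 0.651 and 90.0 FPKM, and Crxos, a homeobox gene, was listed at 0 and then had 39.4 FPKM. On the lower side, Nfya, a subunit of the CCAAT-binding factor NF-Y, had 149.9 and 36.4 FPKM, and Zfp57, which guards imprinted methylation, had 1506 and 259 FPKM. Klf17, an oocyte-rich factor, was within the limits at 371 and 196 FPKM.

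Among genes at 10 FPKM or more in either library, small RNAs aside, the 20 largest increases included Mt2 and Mt1, metallothioneins that bind zinc and copper, which were listed at 0 in PN5 and had 233 and 142 FPKM in the late 2-cell control. Slc34a2, a sodium-phosphate cotransporter, had 0.496 FPKM in PN5 and 216 FPKM later, a ratio of 435 and the largest difference after Mt2 in that ranking, 7.18. Ctsl, the lysosomal protease cathepsin L, had 1.13 and 141 FPKM. Gcsh, the lipoyl carrier protein of the glycine cleavage system, had 1.40 and 169 FPKM. Ficd, an enzyme that attaches AMP to the chaperone BiP, had 0.330 and 98.4 FPKM, and Btbd18 had 0.195 and 74.0 FPKM. Zfp622, a zinc finger gene, had 0.0446 and 62.3 FPKM. Other large increases, such as Gm11544 (listed at 0, then 84.3 FPKM) and Gm7102 (0.487 and 114 FPKM), belong to predicted or clone-named genes that have no established role to give.

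The largest decreases, small RNAs aside, were of transcripts already present in the MII oocyte. Oog1, an oogenesin, had 205 FPKM in PN5 and 1.93e-05 FPKM in the late 2-cell control; several rows carry its symbol, and keeping the highest row alone changed its difference from -7.69 to -6.70. Rgs2, a regulator of G protein signalling, had 356 and 10.9 FPKM, a level 32.8 times lower. Gm813 had 262 and 5.07 FPKM, and A430033K04Rik, a zinc finger gene, 327 and 15.5 FPKM. Ssb, the La protein that binds the ends of new Pol III transcripts, had 323 and 21.5 FPKM. Txnip, the thioredoxin inhibitor, had 478 and 33.2 FPKM. Fam162a had 52.5 and 0.561 FPKM, and Hint1, a nucleotide hydrolase, 58.8 and 3.38 FPKM. In early 2-cell embryos Txnip was already at 48.7 FPKM while Rgs2 was at 145 FPKM, in a separately normalized table.

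Maternal effect genes differed in how far below their PN5 level they were. In the subcortical maternal complex, the protein lattice under the oocyte surface, 6 of 8 members were lower and none higher (median -1.74). Ooep had 825 FPKM in PN5 and 117 FPKM in the late 2-cell control, Padi6 456 and 65.4, and Nlrp5 289 and 61.3. Each of these had more than 4 times its later level in the zygote. Zbed3, the most abundant symbol in PN5, had 5112 and 3667 FPKM, within the 2-fold limits, and Khdc3 was level at 16.1 and 16.4 FPKM. Oocyte Nlrp and Oas genes, relatives of innate immune sensors, had the lowest median of all lists, -2.11, with 10 of 13 measured lower and none higher. Oas1d had 555 and 69.3 FPKM and Oas1h had 216 and 12.1 FPKM. Nlrp14 had 416 and 126 FPKM, and only Nlrp4c was above its PN5 level, at 9.14 and 15.3 FPKM.

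The zona pellucida proteins and oocyte growth factors held 14 measured genes, 5 lower and none higher. Gdf9 and Bmp15, TGF-beta ligands the oocyte sends to its follicle cells, had 406 and 266 FPKM and 1393 and 766 FPKM, inside the limits. Oosp1 stayed high at 1063 and 1279.8 FPKM, while its relative Oosp2 had 235 and 20.2 FPKM. Neighbours in the Tcl1, oogenesin and Omt2 list were just as unlike: 8 of 17 were lower and 2 higher. The 2 higher genes were Omt2a (404 and 947 FPKM) and Omt2b (643 and 1438 FPKM). Tcl1, a coactivator of Akt kinases, was level at 1287 and 1545 FPKM. Oog4 had 265 and 19.9 FPKM. Among oocyte transcription factors, Nobox, which drives oocyte genes during follicle growth, had 107 and 11.5 FPKM and Lhx8 81.9 and 20.5. Taf4b, a TFIID subunit of germ cells, was on the other side at 11.3 and 51.6 FPKM.

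Regulators of meiotic arrest and M phase were more often lower than higher, 15 of 40 measured against 4 higher. Ccnb1, cyclin B1, had 113 and 20.1 FPKM, and Mos, the kinase that holds the MII arrest, had 15.0 and 3.50 FPKM after 173 FPKM in MII. Cdc25 phosphatases, which release Cdk1 from inhibition, went in opposite directions: Cdc25a had 116 and 28.6 FPKM, whereas Cdc25c had 2.25 and 31.0 FPKM. Wee2, the oocyte kinase that inhibits Cdk1, stayed abundant at 369 and 526 FPKM.

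Proteins that store, polyadenylate or destroy mRNA were mixed. Of 42 storage and polyadenylation genes 7 were higher and 13 lower. On the lower side, Pabpn1l, an oocyte nuclear poly(A)-binding protein, had 129 and 7.73 FPKM, and Zar1l, a partner of maternal mRNA, 183 and 12.7. On the higher side, Pabpc1, the general cytoplasmic poly(A)-binding protein, was at 2.23 and 81.8 FPKM and Igf2bp1, an mRNA-binding protein, at 0.343 and 11.7 FPKM. For mRNA decay, 18 of 63 were higher and 14 lower. Btg4, the adaptor that recruits the CCR4-NOT deadenylase to maternal mRNA, was at 1582 and 1529 FPKM, and the deadenylase subunit Cnot7 at 368 and 385. Dcp1a, a decapping cofactor, had 287 and 42.6 FPKM. Among Btg relatives, Btg1 and Btg3 were higher, at 2.04 and 21.7 FPKM and at 3.53 and 34.4 FPKM. Among germline piRNA proteins Tdrd12 had 157 and 9.41 FPKM, while Piwil2 had 0.689 and 6.92 FPKM.

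**Figure D3:**
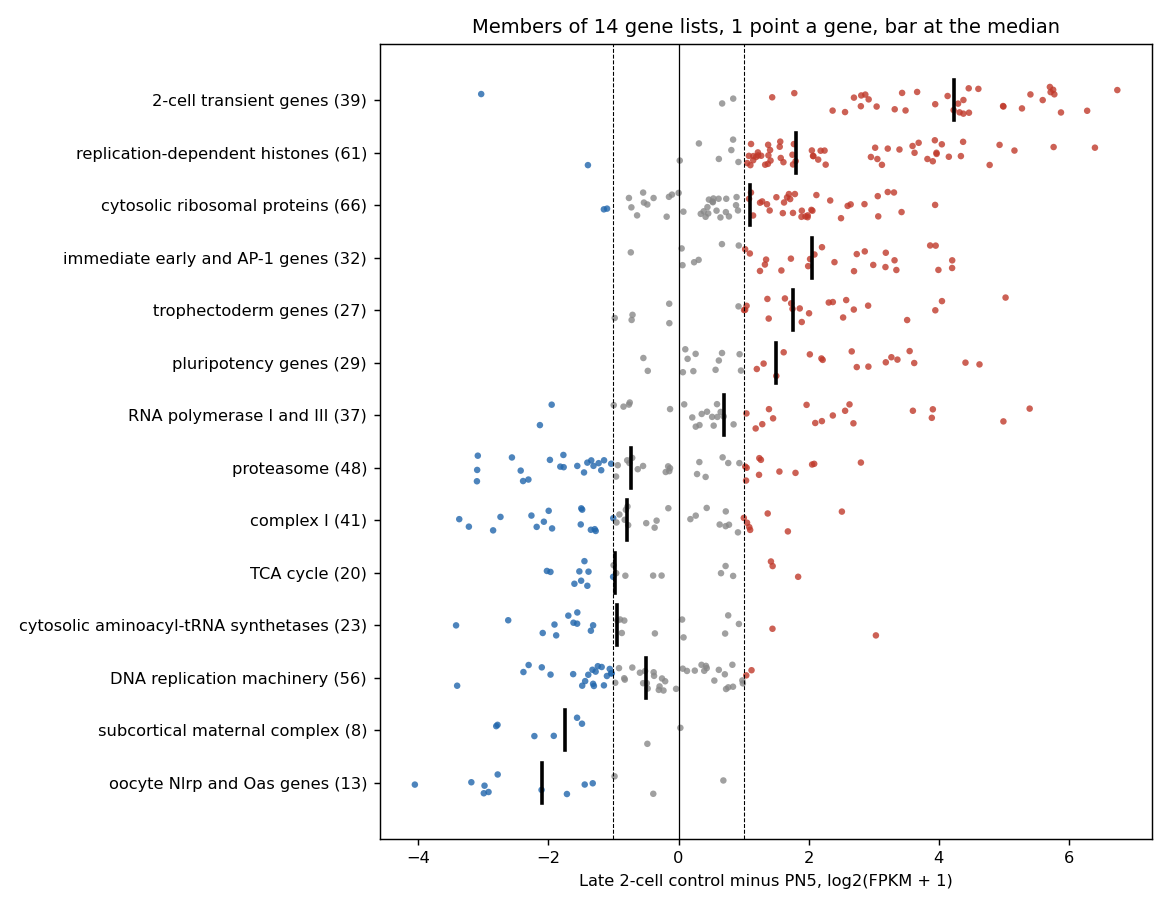
Difference between the late 2-cell control and PN5 on the log2(FPKM + 1) scale for the measured members of 14 gene lists, chosen after the values were seen; 1 point is a gene, coloured at 1 or more (red) or -1 or less (blue), and the black bar is the list's median. The medians run from 4.23 for the 2-cell transient genes to -2.11 for the oocyte Nlrp and Oas genes.

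Most measured replication-dependent histone genes, whose mRNAs end in a stem-loop and carry no poly(A) tail, were higher. Of 67 listed symbols present, 61 were measured, 54 of them higher and 1 lower, and the median difference was 1.80. At 1 FPKM or more stood 41 of the 67 symbols in PN5, 60 in the late 2-cell control and 63 in the separately normalized MII table. The 6 symbols not measured included Hist2h3c2, listed at 0 in both compared libraries but at 180 FPKM in MII. Low or 0 values of these genes can thus not be read as low expression. Among measured genes by class, 12 of 16 H2A, 16 of 17 H2B, 10 of 10 H3, 12 of 12 H4 and 4 of 6 H1 were higher. The largest median, 3.33, was for H3. Hist1h1a, a linker histone and the most abundant histone symbol, had 1915 FPKM in PN5 and 4252 FPKM in the late 2-cell control. Hist1h4c had 1066 and 2492 FPKM, and Hist1h3f 604 and 2037. The largest differences were of genes with low listed values in PN5. Hist2h2ac had 0.386 FPKM, then 116 FPKM, and Hist1h3i had 0.357 FPKM, then 73.0 FPKM. In the early 2-cell library these 2 genes stood in between, at 12.8 and 18.4 FPKM. The genes have near-identical copies, so a level is less certain for a single copy than for the class.

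Promoters of 3 of these histone genes are printed because the members were higher together and share a short element. Each is the 250 bases upstream of the RefSeq start in GRCm38.p6: Hist2h2ac at chr3:96220881-96221130 (minus strand, RefSeq symbol H2ac20), Hist1h3i at chr13:21783398-21783647 (minus strand, H3c11) and Hist1h1a at chr13:23763418-23763667 (plus strand, H1f1). They are written 5′ to 3′ along the gene, and capitals mark CCAAT, the box bound by NF-Y, or its reverse complement ATTGG.

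Hist2h2ac: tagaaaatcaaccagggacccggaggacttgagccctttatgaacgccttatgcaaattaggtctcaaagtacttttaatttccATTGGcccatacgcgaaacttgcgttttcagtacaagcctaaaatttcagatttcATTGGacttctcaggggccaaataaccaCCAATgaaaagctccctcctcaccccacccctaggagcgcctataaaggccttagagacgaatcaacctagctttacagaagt

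Hist1h3i: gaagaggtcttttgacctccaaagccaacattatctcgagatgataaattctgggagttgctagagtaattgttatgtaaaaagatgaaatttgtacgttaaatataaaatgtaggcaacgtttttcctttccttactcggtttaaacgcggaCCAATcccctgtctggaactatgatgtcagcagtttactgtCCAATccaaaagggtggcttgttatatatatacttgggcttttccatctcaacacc

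Hist1h1a: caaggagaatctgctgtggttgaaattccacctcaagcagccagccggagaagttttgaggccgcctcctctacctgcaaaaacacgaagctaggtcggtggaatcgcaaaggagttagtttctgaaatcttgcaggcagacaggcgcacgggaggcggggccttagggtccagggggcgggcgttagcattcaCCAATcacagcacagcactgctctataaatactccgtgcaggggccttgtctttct

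CCAAT on either strand was present in 47 of the 55 measured histone genes with a window (85.5%), against 37.6% of all measured protein-coding genes and 34.5% of the RefSeq table. TATAAA on either strand was present in 28 of 55 (50.9%), against 6.75% of measured genes. The H1 box AAACACA was found in 9 of 55 (16.4%), against 3.75%. Such elements are a known property of histone promoters, and histone genes were not chosen for them here. Across all called genes the CCAAT shares were near that of all measured genes, at 39.0% of higher and 38.4% of lower genes. A match is a description of these letters, not evidence of a bound site.

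Genes that work on histone mRNA or replace replication histones took other directions. Slbp, which binds the stem-loop of histone mRNA, had 518 and 118 FPKM, and H1foo, the oocyte linker histone, had 311 and 58.8 FPKM. Npm2, the oocyte nucleoplasmin that stores histones, had 434 and 107 FPKM. Npat, the activator of histone gene transcription, was higher, at 6.68 and 21.5 FPKM, as was H2afx, the damage-responsive H2A variant, at 81.3 and 357. The paired H3.3 genes differed: H3f3a had 140.0 and 30.9 FPKM, and H3f3b 349 and 438 FPKM.

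Genes of DNA methylation and demethylation, a list that also holds Zfp57, were more often lower (7 of 20) than higher (2). Dnmt1, the maintenance methyltransferase, had 212 and 47.4 FPKM, its cofactor Uhrf1 243 and 62.2, and Tet3, which oxidises methylcytosine in the zygote, 337 and 119. Uhrf2 was the largest increase of the list at 0.754 and 9.88 FPKM. Of 29 histone methylation genes, not all of them enzymes, 9 were higher, a share near the background, and 2 lower. Prmt6, an arginine methyltransferase, had 0.268 FPKM in PN5 and 67.1 FPKM later, and Suv39h1, which writes H3K9 trimethylation, 0.438 and 21.3. Setdb1, also an H3K9 enzyme, stood on the lower side at 124 and 21.7 FPKM. Of the demethylases, Kdm5b, which removes H3K4 methylation, had 1.26 and 107 FPKM, and Kdm2b, an H3K36 demethylase that brings polycomb to CpG islands, 164 and 23.8. Polycomb members were evenly split, 8 higher and 8 lower of 34, with Pcgf5 at 2.11 and 52.1 FPKM and Pcgf1 at 242 and 51.7. Hdac1, the class I deacetylase, had 0.664 and 14.1 FPKM, and Kat8, the H4K16 acetyltransferase, 32.9 and 4.60. SWI/SNF and other remodellers were mostly within the limits, 6 higher and 4 lower of 35. Among 278 measured zinc finger genes 91 were higher and 57 lower, shares close to the background.

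G1/S regulators were higher for 18 of 39 and lower for 5 (median 0.97). Ccne1, cyclin E1, had 3.16 and 141 FPKM, and Mycn 0.0805 and 12.6. Cdkn1a, the Cdk inhibitor p21, was higher too, at 0.745 and 37.1 FPKM. In the replication machinery, 20 of 56 were lower and 2 higher. Rfc3, a clamp loader subunit, had 46.7 and 3.51 FPKM and Rpa1, the single-strand binding protein, 61.9 and 11.7. The higher genes were Dut, the dUTPase, at 40.4 and 89.1 FPKM and Dbf4, the activator of the Cdc7 kinase, at 194 and 400.5. Kinetochore, spindle and cohesin genes were lower for 22 of 77 and higher for 8. Tacc3, a spindle protein, had 379 and 39.9 FPKM, and Pttg1, securin, 611 and 233. DNA repair genes were lower for 18 of 56, with Chek1 at 251 and 98.0 FPKM, while Chek2 was higher at 0.547 and 16.6. None of 30 measured p53 pathway genes was lower and 14 were higher, among them Sesn2, a stress-induced inhibitor of mTORC1, at 2.16 and 92.8 FPKM.

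Genes of the RNA polymerases differed between systems. For RNA polymerases I and III 17 of 37 were higher and 2 lower (median 0.69). Ubtf, the upstream binding factor of rRNA genes, had 1.81 and 41.3 FPKM, and its preimplantation relative Ubtfl1 was listed at 0 and then had 41.2 FPKM. Gtf3c5, a TFIIIC subunit, had 0.267 and 39.4 FPKM. Taf1b, of the Pol I selectivity factor, was lower at 30.9 and 6.27 FPKM. For RNA polymerase II, its general factors and TAFs, 14 of 50 were higher and 7 lower, shares near the background. Their median of 0.17 was below that of all genes. Polr2f, a subunit shared by the 3 polymerases, had 81.8 and 286 FPKM and Polr2h, another, 1.31 and 20.2. Gtf2b, TFIIB, had 193 and 31.5 FPKM. Among pausing and elongation genes 8 of 33 were higher and 3 lower. Hexim1, which holds the pause-release kinase P-TEFb inactive in the 7SK particle, had 0.576 and 55.9 FPKM, and its relative Hexim2 19.2 and 6.85. Tceb3, Elongin A, had 5.14 and 63.8 FPKM. Of 33 Mediator genes 7 were lower and 4 higher, with Med17, a head module subunit, at 90.3 and 4.73 FPKM. Spliceosome genes were split, 24 higher and 27 lower of 94, with Eftud2, a U5 GTPase, at 35.0 and 3.23.

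Symbols of the ribosome and its assembly were higher in part. The 45S ribosomal RNA precursor symbol Rn45s was the most abundant symbol in the late 2-cell control at 5202 FPKM, against 169 FPKM in PN5, in libraries that were depleted of ribosomal RNA. The Lars2 symbol, whose locus carries sequence like rRNA, was also higher, at 48.7 and 1061 FPKM, and the part of depletion in either value was not tested. Among 112 nucleolar assembly factors 33 were higher and 18 lower, near the background. Mak16 had 0.311 and 31.6 FPKM and Nop2, an rRNA methyltransferase, 1.46 and 46.2. Bms1, a GTPase of the small subunit processome, had 196 and 13.9 FPKM. Host genes of small nucleolar RNAs were higher for 8 of 12 and lower for none, and Snhg12 and Snhg3, both listed at 0 in the zygote, reached 15.0 and 9.57 FPKM. Listed values of short noncoding RNAs differed widely both ways. Rpph1, the RNA of RNase P, had 1129 and 4143 FPKM and Rnu12, the U12 spliceosomal RNA, 478 and 2432. Snord49b was listed at 0 in PN5 and had 866 FPKM, and Snora64 had 141 FPKM and was then listed at 0. Snord100 and Snord104 had 327 and 279 FPKM at the late 2-cell stage without DRB, and both the zygote library and the mTBE library listed them at 0. An effect of DRB on them was not tested. Of 114 small nucleolar and Cajal body RNA symbols only 31 were measured. The zygote library gave 9 of these 31 a value of 0, and the late 2-cell control gave 5 of them that value. Such a 0 may be a failed estimate, and read depth is unknown. A difference from it is thus only a difference between listed values.

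Of 86 cytosolic ribosomal protein symbols 66 were measured, 34 higher and 2 lower, with a median of 1.10. Rpl41 had 48.0 FPKM in PN5, 297 FPKM in the late 2-cell control and 5058 FPKM as the mean of the ICM libraries of polyadenylated RNA, and Rplp1 had 6.37, 113 and 1589.8 FPKM. In PN5 7 of the 66 were listed at 0. At 1 FPKM or more stood 44 of the 86 symbols in the zygote, 64 in late 2-cell embryos and 84 in the separately normalized MII table. Of 77 ribosomal protein symbols at 10 FPKM or more in MII, 18 were below 1 FPKM in both compared libraries and 8 were listed at 0 in both, such as Rpl11 and Rps12. Low or 0 values of these genes in the shared table can thus not be read as low expression, and a difference from such a value is only a difference between listed values. Of the 32 higher genes that had less than 1 FPKM in PN5 but 10 or more in MII, 14 were cytosolic ribosomal proteins and 7 replication histones. Rpl39 had 55.8 FPKM in MII, was listed at 0 in PN5 and had 8.94 FPKM in the late 2-cell control. Many ribosomal protein genes have processed pseudogenes that can share their reads.

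Mitochondrial ribosomal proteins were lower for 26 of 76 and higher for 10, with Mrpl47 at 34.1 and 1.81 FPKM and Mrps26 at 6.28 and 45.6. Cytosolic aminoacyl-tRNA synthetases, listed with associated factors such as Aimp1, were lower for 11 of 23 and higher for 2 (median -0.94). Nars, for asparagine, had 91.1 and 29.1 FPKM, and Yars, for tyrosine, was an exception at 0.0374 and 7.50. Translation factors had 12 higher and 15 lower of 67. Eif4e1b, the oocyte cap-binding protein, had 793 and 462 FPKM. Eif1a, which takes part in start-codon scanning, had 0.365 and 17.8 FPKM, and Gspt2, a release factor, 102 and 6.66.

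In the proteasome 20 of 48 measured genes were lower and 11 higher (median -0.73), and the parts differed. The 16 measured core particle genes had 6 lower and 5 higher with a median of 0.07, and the 20 regulatory particle genes had 11 lower and 1 higher with a median of -1.19. Psma2 and Psma7, alpha ring subunits, had 168 and 18.8 FPKM and 159 and 17.7 FPKM. Psme4, the PA200 activator, was higher at 113 and 233 FPKM. Ubiquitin-conjugating and SCF genes were lower for 38 of 107 and higher for 23. Skp1a, the SCF adaptor, had 1147 and 458 FPKM, and Fbxo15, an F-box gene active in embryonic stem cells, 6.39 and 172. The chaperonin CCT and prefoldin list had 5 of 16 lower, with Pfdn4 at 179.5 and 12.9 FPKM, and Cct6a on the higher side at 0.859 and 34.8. Heat shock and ER chaperones were higher for 17 of 57 and lower for 9, shares near the background. Bag3, an Hsp70 cochaperone, had 0.0385 and 16.1 FPKM, Dnajb9, an ER cochaperone, 7.00 and 100.2, and Hsp90aa1, inducible Hsp90, 113 and 19.2. In the autophagy and lysosome list the lysosomal hydrolase Ctsc was higher, at 0.184 and 35.8 FPKM, and Ctsh, another, chosen after its values were seen, had 70.4 and 25.9 FPKM, while the autophagy gene Atg5 had 212 and 77.8 FPKM. Of the nuclear transport receptors, Kpna1 was at 0.470 and 55.9 FPKM and Tnpo3 at 1.05 and 43.5, and the nucleoporin Nup107 was at 85.3 and 13.5 FPKM. In the secretory pathway 14 of 59 were lower and 8 higher, with the coatomer gene Copb2 at 91.0 and 12.9 FPKM.

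**Figure D4:**
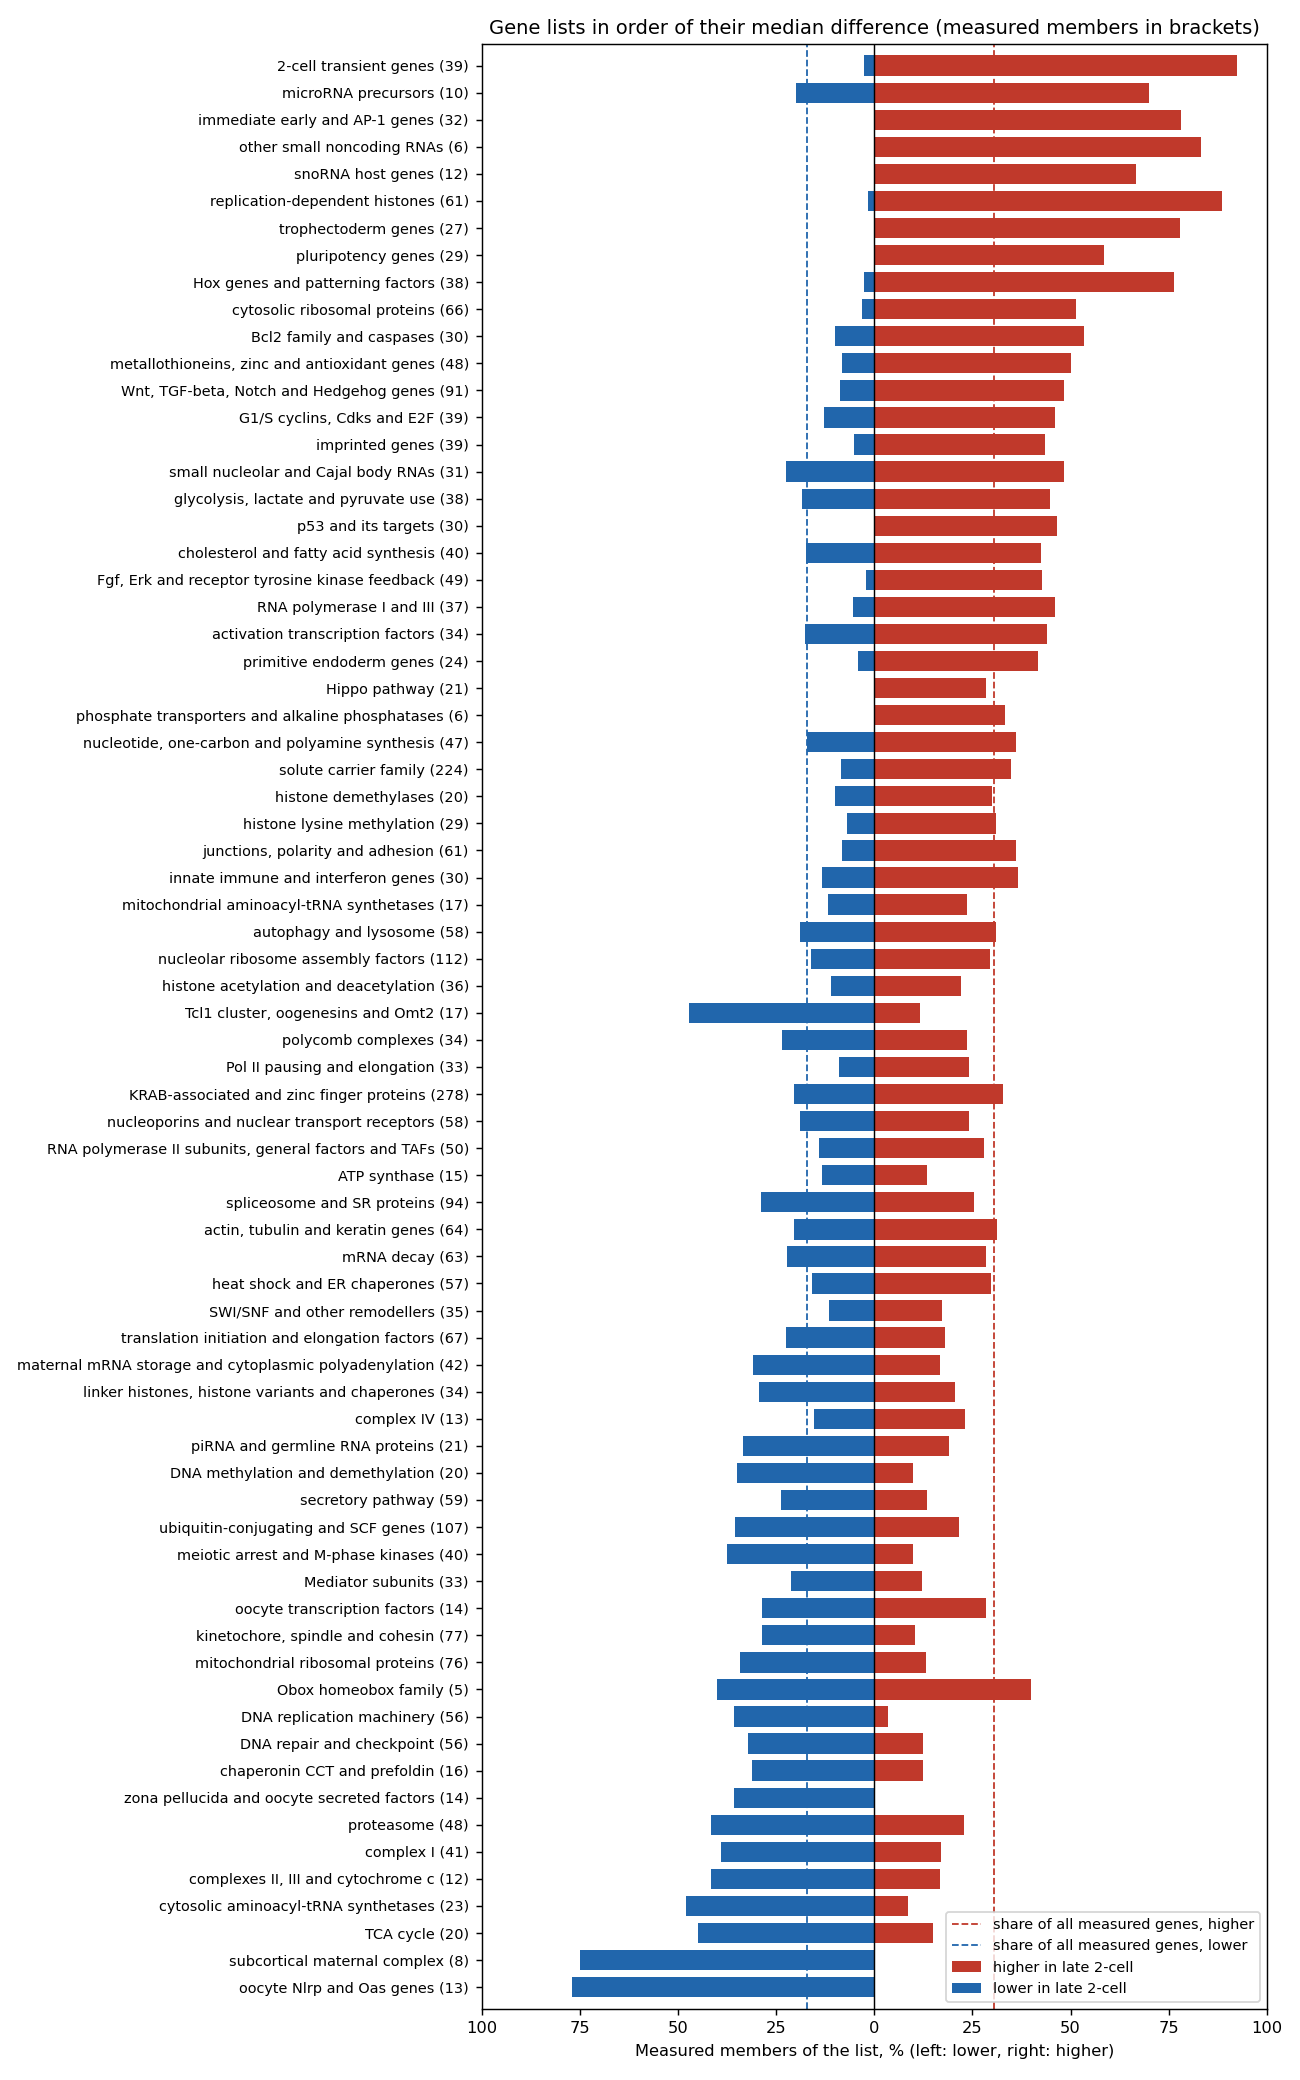
Share of the measured members of each of the 72 lists with 5 or more measured members that were higher (red, right) or lower (blue, left) in the late 2-cell control, in percent, ordered by the list's median difference. Dashed lines mark the shares of all measured genes, 30.5% higher and 17.0% lower, and the red bar reaches 92.3% for the 2-cell transient genes while the blue bar reaches 76.9% for the oocyte Nlrp and Oas genes.

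Complex I subunits and assembly factors were lower for 16 of 41 and higher for 7 (median -0.78). In complexes II and III and cytochrome c 5 of 12 were lower, with Sdhd, a membrane anchor of succinate dehydrogenase, at 64.3 and 4.99 FPKM. TCA cycle genes were lower for 9 of 20 and higher for 3 (median -0.98): Fh1, fumarase, had 31.8 and 7.37 FPKM, and Mdh2, malate dehydrogenase, 12.6 and 47.6. ATP synthase and complex IV were nearer to level. In complex IV the testis-type subunit Cox6b2 had 55.9 and 192 FPKM. Glycolysis, lactate and pyruvate genes were higher for 17 of 38 and lower for 7. Glucose transporters were among them, Slc2a3 at 0.0982 and 16.0 FPKM and Slc2a8 at 0.0524 and 9.48. Pdp2, the phosphatase that activates pyruvate dehydrogenase, had 2.31 and 84.6 FPKM. Ldhb, the heart-type lactate dehydrogenase subunit abundant in oocytes, had 621 and 152 FPKM.

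For nucleotide, one-carbon and polyamine synthesis 17 of 47 were higher and 8 lower. Prps1, which makes phosphoribosyl pyrophosphate, had 1.45 and 117 FPKM, and Nme2 was listed at 0 and then had 35.9 FPKM. Amd1 and Amd2, near-identical copies of the adenosylmethionine decarboxylase gene, gave opposite differences, Amd1 from 0.0961 to 49.3 FPKM and Amd2 from 23.1 to 2.31 FPKM; reads shared between the copies make each value uncertain. Cholesterol and fatty acid genes were higher for 17 of 40, among them the desaturases Scd1 (0.0849 and 20.0 FPKM) and Scd2 (0.119 and 16.6 FPKM) and Mvk, mevalonate kinase (0.185 and 17.0 FPKM). Solute carriers were higher for 78 of 224 and lower for 19. Slc19a3, a thiamine transporter, had 0.390 and 52.9 FPKM and Slc1a5, a glutamine transporter, 0.125 and 28.5. Of 48 metal-binding, zinc and antioxidant genes 24 were higher; Prdx4, an ER peroxiredoxin, had 0.886 and 44.4 FPKM, whereas Sod1 had 315 and 86.9 FPKM. Alppl2, a placental-like alkaline phosphatase, had 2.77 and 138 FPKM.

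Genes known for later lineages were more often higher than lower, many of them from levels under 1 FPKM in PN5. Genes under that level in PN5 could not have been called lower. None of the 29 measured pluripotency genes was lower and 17 were higher (median 1.50). Klf5, a Kruppel-like factor, had 0.720 and 41.5 FPKM, and Zfp42, known as Rex1, 0.432 and 29.5. Pou5f1, or Oct4, was level at 189 and 203 FPKM. Nanog and Sox2, chosen after their values were seen, were low, Nanog listed at 0 and then at 1.84 FPKM and Sox2 at 1.39 and 10.1. Of 27 trophectoderm genes 21 were higher and none lower; Krt18, a keratin of the blastocyst's outer layer, was listed at 0 and then had 15.6 FPKM, and Id1, a BMP target, had 0.245 and 39.7 FPKM. Cdx2, also chosen after its values were seen, had 0.0955 and 2.41 FPKM. Primitive endoderm genes were higher for 10 of 24, and Gata4 had 16.4 and 46.1 FPKM. Hox and patterning genes were measured for only 38 of 97 symbols in the table, 10 of them at 1 FPKM or more in PN5, and 29 were higher. Levels were modest, as for Nkx6-2 at 1.09 and 33.4 FPKM and Neurog2 at 0.0990 and 14.9 FPKM.

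Immediate early and AP-1 genes, which cells induce within minutes of a stimulus, were higher for 25 of 32 and lower for none (median 2.06). Klf4 had 7.68 and 57.0 FPKM, Gadd45b 0.884 and 33.8, and Dusp5 0.400 and 21.3. Dusp1 and Srf were exceptions, at 53.2 and 31.6 FPKM and at 35.6 and 37.2 FPKM. Of the feedback inhibitors of Erk, Spry2 and Dusp6 were higher, Spry2 at 0.248 and 22.2 FPKM and Dusp6 at 0.399 and 24.9, while Spry4, abundant from the oocyte on, was level at 437 and 423. Of 91 Wnt, TGF-beta, Notch and Hedgehog genes 44 were higher and 8 lower. Smad7, an inhibitory Smad, had 0.170 and 50.1 FPKM, Fzd2, a Wnt receptor, was listed at 0 and then had 31.0 FPKM, and Jag1, a Notch ligand, had 104 and 36.8 FPKM. Hippo genes were higher for 6 of 21 and lower for none, with the coactivator Yap1 at 425 and 663 FPKM, within the limits. Of 61 junction and polarity genes 22 were higher, including Epcam at 0.241 and 34.4 FPKM and Cldn6 at 0.171 and 27.5; Ctnnb1, beta-catenin, had 161 and 68.0 FPKM. In the Bcl2 and caspase list 16 of 30 were higher and 3 lower. Mcl1, which protects cells from apoptosis, had 5.75 and 66.2 FPKM, Pmaip1, which promotes it, 0.674 and 15.3, and Bcl2l10, the oocyte member, 1806 and 707.

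**Figure D5:**
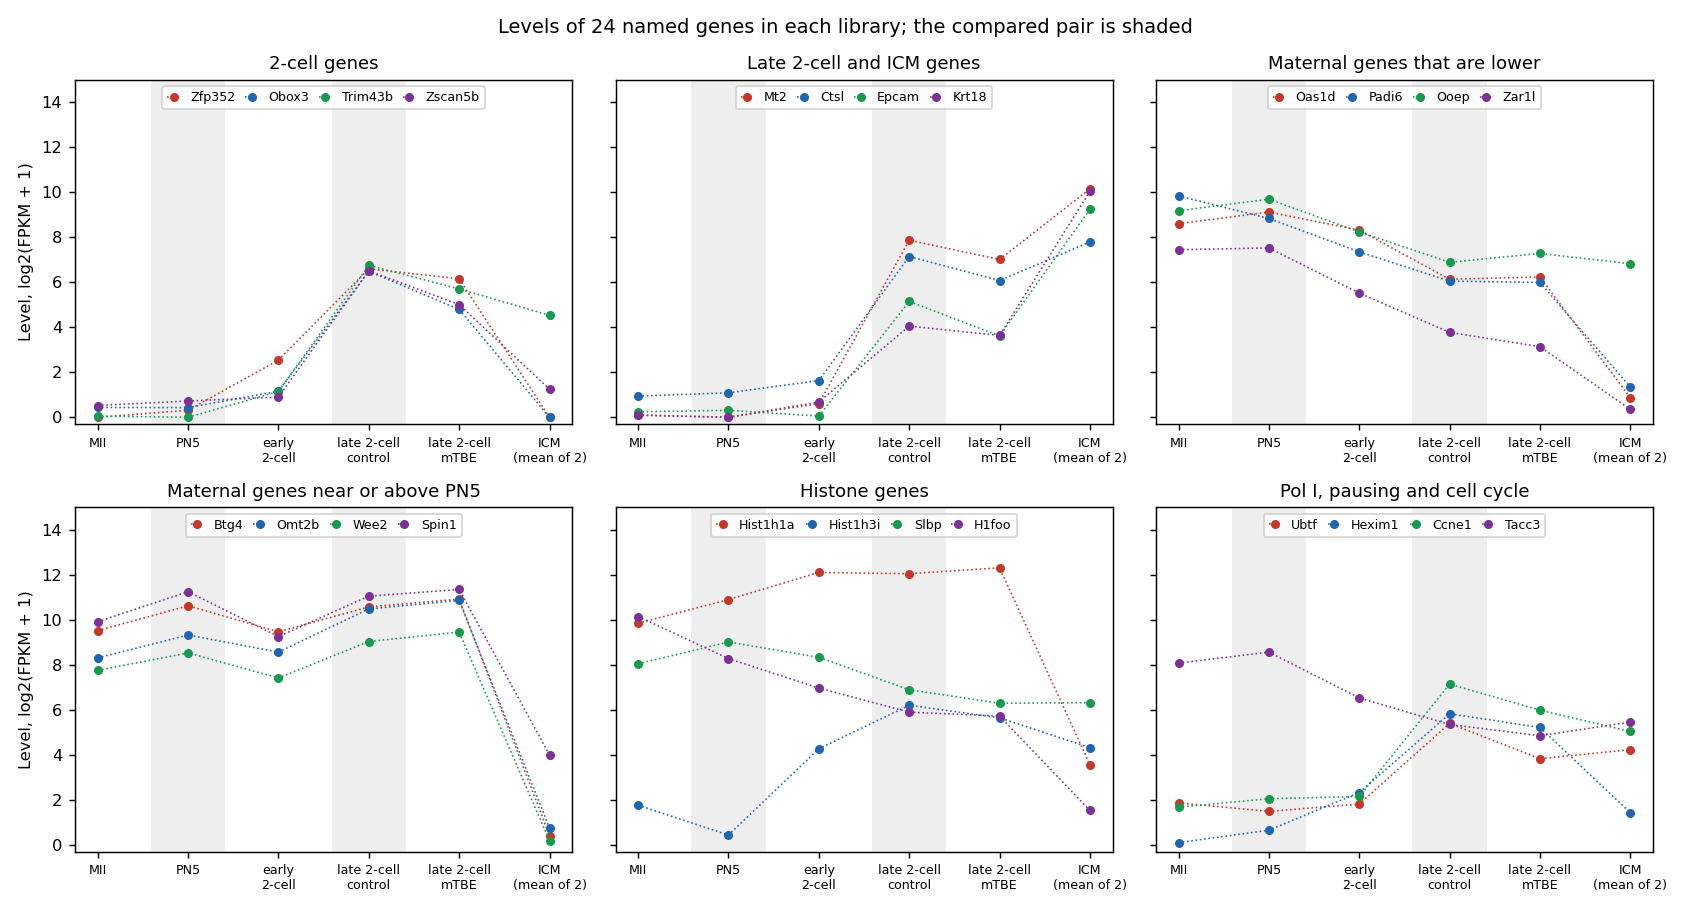
Levels as log2(FPKM + 1) of 24 genes in the MII, PN5, early 2-cell, late 2-cell control, late 2-cell mTBE and ICM libraries, with PN5 and the late 2-cell control shaded; only these 2 and mTBE share a table, so dotted lines link separately normalized values. The 2-cell genes peak in the late 2-cell control, whereas Btg4, Spin1 and Wee2 are within 2-fold of their PN5 level there and lowest in the ICM.

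Imprinted genes, silenced on 1 parental copy, were higher for 17 of 39 measured and lower for 2. Nnat was listed at 0 in PN5 and had 10.0 FPKM, and Dio3 had 0.502 and 21.8 FPKM, while Commd1 had 43.0 and 7.15 FPKM. Of 30 innate immune genes 11 were higher and 4 lower, not far from the background. Trim25 was at 0.175 and 16.1 FPKM and Mb21d1, the DNA sensor cGAS, at 36.5 and 6.79. Cytoskeletal genes split: Tmsb4x, an actin-sequestering peptide, had 0.493 and 20.8 FPKM, and the tubulins Tubb4b and Tubb3 had 459 and 109.7 FPKM and 249.9 and 74.8 FPKM.

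Abundant genes with the smallest differences show how level a transcript could be. Among genes at 100 FPKM or more in both libraries, Cdo1, cysteine dioxygenase, had 288 and 289 FPKM, Laptm4b 259 and 257, and Mark2, a polarity kinase, 232 and 235. Spin1, a histone methyl-lysine reader and the second most abundant symbol in PN5, had 2445 and 2131 FPKM. Rfpl4, also among the 15 most abundant in PN5, was not level, at 1571 and 452 FPKM.

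Libraries outside the comparison were used to see the called genes again. Early 2-cell embryos and MII oocytes share no library with the pair, but each has its own table. Of 10669 genes reaching 1 FPKM in either of these libraries, 3.98% were higher and 28.8% lower in early 2-cell embryos. Over the 10084 genes measured in both comparisons the shares were 2.51% and 29.2%, with a median of -0.59. Among the 1811 of these genes called higher in the late 2-cell control 10.9% were higher in early 2-cell embryos and 17.0% were lower. Among the 2157 of them called lower 45.0% were lower there and 0.510% higher. A gene below 1 FPKM in MII could not be called lower in early 2-cell embryos, so these shares depend in part on level. At a filter of 5 FPKM in both comparisons, 46.9% of lower genes and 34.2% of all genes were lower there. With the median log2 ratio of each comparison set to 0, 19.7% of higher genes were again higher and 10.1% lower, and 24.4% of lower genes were again lower and 1.74% higher, against 6.93% higher and 14.8% lower of all genes. Most genes higher at the late 2-cell stage and measured in both comparisons thus did not reach the 2-fold limit in the early 2-cell library. In the ICM, 63.4% of higher genes and 69.5% of lower genes were at 1 FPKM or more in the mean of 2 replicates, against 67.2% of all measured genes. Of the 1586 higher genes at 10 FPKM or more in the late 2-cell control, 779 (49.1%) were at 10 FPKM or more in the ICM and 243 (15.3%) were below 1 FPKM. Mt2 at 1135 FPKM and Krt18 at 1054 FPKM in the ICM belonged to the first kind, and Zfp352 and Obox3, both listed at 0 there, to the second.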

How the data were processed

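RNA levels were taken from FPKM tables that the authors deposited, 1 value per gene row and library; per the submitters' processing notes the tools were CASAVA 1.8, TopHat2 2.1.1 and Cufflinks 2.1.1 with genome build mm9, with no role given for each table. Raw counts were not used here, so depth and counting error are unknown, and how reads shared by gene copies, overlapping genes or antisense genes were counted is not given in the sources used here. No column of values was left without a sample (0).

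Rows sharing a symbol (497) were summed. Genes at 1 FPKM or more in PN5 or the late 2-cell control were kept, and the difference of log2(FPKM + 1) was computed with Python 3.11.15, pandas 2.3.3 and NumPy 2.4.6. The rule of 2-fold was checked on simulated data. With 1 library in each group no test was run. Promoter windows are RefSeq's (GRCm38.p6, another build than the authors'), 250 bases long, matched by symbol for 10051 of 12404 measured protein-coding genes (81.0%).

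Named genes, small RNAs aside, were the 20 largest increases and decreases at 10 FPKM or more, the 15 highest in each library, the 10 smallest differences at 100 FPKM or more in both, and from each list the 3 largest increases, 3 largest decreases and 3 highest at 5 FPKM or more; for small RNAs, the 5 largest each way. Genes outside this rule include Dux, Nanog, Sox2, Cdx2, Ctsh and the marker genes. The genes and lists were chosen with earlier results of these data known. Other pseudocounts, filters, scalings and treatments of shared symbols were tried.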

Additional observations from a re-analysis of the deposited data

How the results depend on the processing

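Of the 561 named genes, none with a called difference changed sign under the settings tried; the other called genes were not checked for this. With a filter of 5 FPKM 2331 genes were higher and 1920 lower, against 3970 and 2218, so the share of called genes that were higher fell from 64.2% to 54.8%; fewer genes entered. The median difference of 0.28 became 0.083 with that filter, 0.41 with the median log2 ratio set to 0, 0.41 with each library's sum rescaled to 1000000 FPKM and 0.45 with the rescaling done without small RNAs. After centring both comparisons, 2082 higher and 1899 lower genes were measured in both. Of these higher genes 19.7% were higher in early 2-cell embryos than in MII, and of these lower genes 24.4% were lower. At 5 FPKM or more in the ICM the shares present were 42.4% of higher and 50.1% of lower genes. Of 561 named genes, 12 crossed the 2-fold limit with centring and 8 with a pseudocount of 0.1 FPKM. Such counts do not show changes of size, and the size of a difference from a value near 0 FPKM depends on the pseudocount. Centring changed the sign of 5 list medians: mRNA storage, histone variants, remodellers, translation factors and complex IV. The filter of 5 FPKM changed 2, cytoskeletal and innate immune genes. No paired analysis was possible because each compared group held 1 library, and no library could be left out. Read depth is unknown, so the precision of low values is too.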
